A study of Mus musculus with 16 samples.

Results

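Solute carriers are the membrane proteins that move amino acids, sugars, nucleosides, vitamins, metals and other small solutes across the plasma membrane and the membranes of organelles. The 212 genes described here are those in the RNA-seq table whose symbol starts with Slc and a number, without the mitochondrial Slc25 family and without *Slc4a1*, *Slc11a2* and *Slc40a1*. They were 212 of 15386 genes listed, they came from 43 Slc families, and 182 of them were also among the 13490 genes of the m6A table. Of the 212, 4 carry an Slc symbol without being carriers themselves, for example *Slc7a6os*, and they were kept as a group of their own.

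A red cell progenitor takes up glycine and iron for heme, amino acids for globin, and folate and nucleosides for its rapid divisions. Carriers work either by letting a solute run down its own gradient, by coupling it to an ion, or by exchanging it for another solute. Many work on internal membranes, where they supply the Golgi apparatus, empty lysosomes or hold stores of metals and calcium.

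The RNA-seq compared 3 libraries of sorted control CFU-E with 3 libraries of cells labelled *Mettl3*-deficient CFU-E Kit-lo, all from mouse bone marrow. CFU-E cells are erythroid progenitors, gated as lineage-negative cells positive for Kit and CD71, and Kit-lo cells are those with very little surface Kit. The deficient mice were *Mettl3* fl/fl EpoR Cre/–, in which a Cre driven from the erythropoietin receptor gene recombines in erythroid cells and in the macrophages of erythroblastic islands. Both sexes of adult C57BL/6 mice were used, the sources used here do not give the genotype of the control libraries, and no source says whether the libraries of a group came from separate mice, so that p-values measure only the spread between these libraries. The groups differed in genotype and in the Kit gate at once, and these cannot be told apart. In a second experiment, 2 libraries of RNA pulled down with an antibody to m6A (IP) and 2 input libraries were made from control CFU-E cells alone. Another 6 ProE samples were not analysed here.

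Library totals were 17429262 to 21329242 estimated counts for RNA-seq libraries and 19421059 to 37142742 for m6A libraries. Levels are given as CPM, the counts of a gene divided by the scaled library total. Control libraries had 115, 123 and 130 CPM of *Mettl3* itself, the libraries labelled Kit-lo 117, 127 and 108, and the difference did not pass the test (log2 fold change -0.07, adjusted p = 0.634). The paper reported loss of *Mettl3* mRNA by qRT-PCR and of its protein by Western blot in erythroid cells of the deficient mice. Why the counts summed per gene differ from that was not tested. *Kit* was at 598 CPM in control and 55.2 in the libraries labelled Kit-lo. Late erythroid markers were higher for 7 of 10 genes, with a summed level of 1020 to 1153 CPM in control and 2575 to 3797 in the libraries labelled Kit-lo. All 4 early progenitor markers tested, of 6 listed, were lower, and the list fell from 754 to 859 down to 72.5 to 94.4 CPM. Macrophage markers summed to 22.6 to 27.5 against 12.6 to 16.01 CPM. Of 6 tested, *C1qa* and *Cd163* were lower and 0 were higher, and *Adgre1* was at no more than 3 counts per library. *Cd68* (4.27 against 4.66 CPM) and *Csf1r* (0.717 against 0.896 CPM) had higher means in the libraries labelled Kit-lo without passing the test. Granulocyte markers summed to 25.8 to 39.2 against 16.1 to 24.8 CPM, with *Ngp* higher and *Mpo* lower of 4 tested. Megakaryocyte markers summed to 13.2 to 22.2 against 20.2 to 26.2 CPM, with *Itga2b* and *Gp9* higher and 0 lower of 4 tested. Mast cell and basophil markers summed to 2.78 to 5.78 against 0.388 to 3.6 CPM, with 0 called of 2 tested. Lymphoid markers summed to 0.958 to 1.83 against 3.58 to 4.9 CPM, with *Ighm*, the only one tested, higher. The part of these shifts in the carriers' differences was not tested. In bulk samples, fewer cells of a type and less RNA per cell cannot be told apart.

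Solute carriers were more often higher than lower in the libraries labelled Kit-lo. Of the 212 genes, 164 had enough counts to be tested, and 34 of these rose while 10 fell by at least 1.5-fold at an adjusted p under 0.05 (differentially expressed genes, DEGs). Over all 11979 genes tested, 12.1% were called higher, 9.83% lower and 22% either way, against 20.7%, 6.1% and 26.8% of the carriers. The median log2 fold change was 0.18 over the carriers tested and 0.01 over all genes. In 43 of the 44 DEGs the 3 libraries of one group lay wholly above those of the other. Such groups without overlap were found for 48 carriers (29.3%) with the higher level in the libraries labelled Kit-lo and for 28 (17.1%) with the lower, 46.3% in all, against 23.5%, 24% and 47.5% of all genes tested. The 48 untested carriers were at or below 0.557 CPM on average in control and 0.907 CPM in the libraries labelled Kit-lo. With a test against the fold of 1.5 itself rather than against no change, 18 carriers were higher (11%) and 6 lower (3.66%), against 5.55% and 4.02% of all genes.

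**Figure D1:**
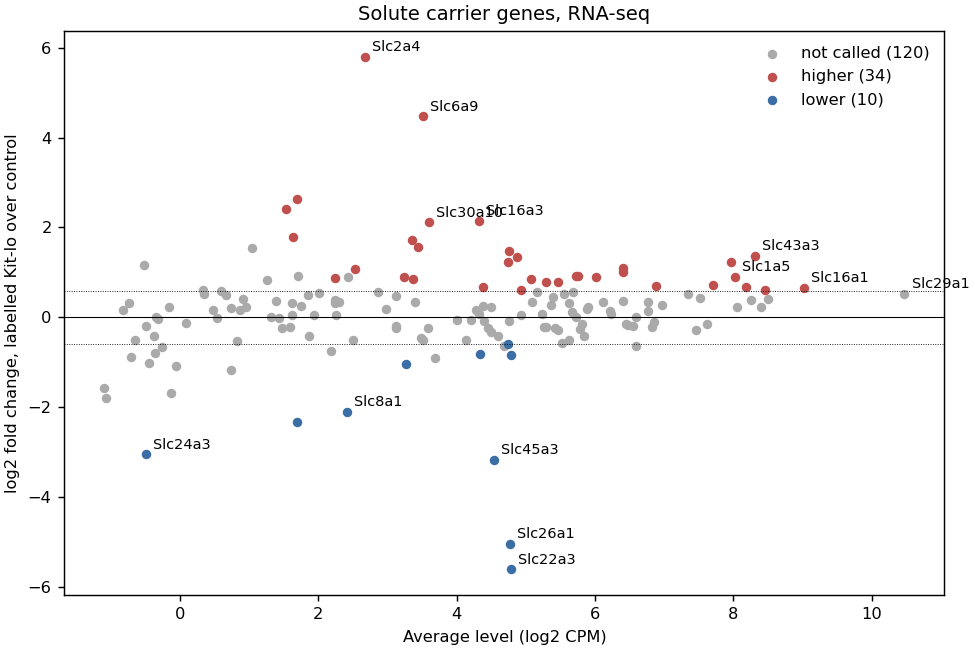
Each point is 1 of the 164 solute carriers tested, with its average level (log2 CPM) on the x axis and its log2 fold change in libraries labelled Kit-lo over control on the y axis, dotted lines marking a 1.5-fold difference. The largest rises (*Slc2a4*, *Slc6a9*) lie at low to middle levels, *Slc29a1* is the most abundant and lies just under the upper dotted line, and *Slc24a3*, without a count in the libraries labelled Kit-lo, is drawn at its bound of 8.28-fold.

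Summed over all 212 genes, the carriers held 8270, 8070 and 8270 CPM in control libraries and 10639, 10328 and 11091 CPM in the libraries labelled Kit-lo. All libraries labelled Kit-lo were above all control libraries. Levels of different genes are compared below as CPM per kilobase of the longest annotated transcript. On that scale the 10 most abundant carriers held 51.02% of the summed level in control and 55.4% in the libraries labelled Kit-lo, and *Slc29a1* alone held 20.4% and 22.1%.

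The nucleoside and nucleobase carriers were the most abundant class because of *Slc29a1*, the equilibrative nucleoside transporter of the red cell. It was at 524 CPM per kilobase in control and 757 in the libraries labelled Kit-lo, first in both. Its CPM values were 1195, 1120 and 1169 in control and 1684, 1594 and 1751 in the libraries labelled Kit-lo, without overlap. The log2 fold change of 0.53 ± 0.07 (SE) had an adjusted p of 0.000326 but was smaller than 1.5-fold, so that it was not a DEG. Without replicate 2 of the libraries labelled Kit-lo it passed both thresholds.

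*Slc43a3*, a carrier of purine nucleobases, rose in the same class. It was at 186, 161 and 185 CPM in control and at 449, 450 and 481 in the libraries labelled Kit-lo. The log2 fold change was 1.38 ± 0.08 (SE, adjusted p = 3.28e-06), and its rank per kilobase moved from 7 to 2. *Slc28a2*, a sodium-coupled purine nucleoside carrier, fell from 5.3 ± 0.72 to 1.05 ± 0.37 CPM (SD, n = 3 and 3, log2 fold change -2.32, adjusted p = 0.0011). The class as a whole summed to 604 CPM per kilobase in control and 945 in the libraries labelled Kit-lo, or 1.57 times as much.

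Amino acid carriers had 9 of 29 tested genes higher and 0 lower by edgeR, of 43 listed, with a median log2 fold change of 0.33. Over all genes tested, 12.1% were higher and 9.83% lower. The remaining counts of this paragraph are of amino acid carriers. At an unadjusted p under 0.05, 2 were lower, and DESeq2 called 10 higher and 1 lower. The largest rise was that of *Slc6a9*, the glycine transporter of erythroid cells, on chromosome 4 (GRCm38, chr4:117834506-117875198, plus strand). It was at 1.01, 0.515 and 1.37 CPM in control and at 23.3, 22.2 and 19.1 in the libraries labelled Kit-lo. Every library labelled Kit-lo was thus more than 10 CPM above every control library, and the log2 fold change was 4.47 ± 0.31 (SE, adjusted p = 6.25e-06). Of its exonic bases, 27.8% lie opposite exons of *Ccdc24*, and the use of strand in the counting is not stated, so reads of the pair cannot be told apart.

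Carriers of glutamine of the Slc38 family on the fixed list did not pass the test. *Slc38a5*, which couples glutamine and glycine uptake to sodium, was at 222, 193 and 200 CPM in control and at 167, 189 and 205 in the libraries labelled Kit-lo. The groups overlapped (log2 fold change -0.14, adjusted p = 0.322). *Slc38a2*, of the same family, did not pass the test either (91.5 ± 7.2 against 83.0 ± 11.7 CPM, SD, n = 3 and 3, adjusted p = 0.417). *Slc38a1* and *Slc38a6*, outside that list and named after their values were seen, were lower without overlap. *Slc38a1* went from 193 ± 8.0 to 159 ± 8.4 CPM (SD, n = 3 and 3, adjusted p = 0.0248), less than 1.5-fold. *Slc38a6* went from 118 ± 24.4 to 75.8 ± 25.2 CPM (SD, n = 3 and 3, log2 fold change -0.64). It missed the threshold (adjusted p = 0.0628) but was called lower by DESeq2. *Slc38a5* was the most abundant amino acid carrier per kilobase in control (103), while *Slc1a5* was the leading one in the libraries labelled Kit-lo (121).

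*Slc1a5*, which exchanges glutamine and other neutral amino acids, was at 207, 162 and 175 CPM in control and 400, 326 and 293 in the libraries labelled Kit-lo (log2 fold change 0.90 ± 0.13, SE, adjusted p = 0.000473). *Slc7a5* and *Slc3a2* encode the light and heavy chain of one exchanger of large neutral amino acids. *Slc3a2* rose from 158 ± 9.8 to 260 ± 10.7 CPM (SD, n = 3 and 3, log2 fold change 0.72, adjusted p = 0.000127). *Slc7a5* rose from 23.9 ± 1.8 to 36.7 ± 3.6 CPM (SD, n = 3 and 3, log2 fold change 0.62, adjusted p = 0.00568), and fell below the fold threshold with upper quartile scaling, without control replicate 2 and without replicate 3 of the libraries labelled Kit-lo. Per kilobase the heavy chain was at 56.2 in control and the light chain at 6.79.

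*Slc43a1*, a uniporter of large neutral amino acids, rose from 223 ± 22.8 to 356 ± 54.1 CPM (SD, n = 3 and 3, log2 fold change 0.68, adjusted p = 0.00151). It lost its call without replicate 3 of the libraries labelled Kit-lo. The remaining amino acid DEGs were *Slc7a1* (cationic amino acids, log2 fold change 0.89), *Slc1a4* (alanine, serine and cysteine, 0.85), *Slc6a13* (a GABA transporter, 0.88) and *Slc38a10* (0.61). *Slc6a13* lost its call without control replicate 2 or 3 and without replicate 1 or 2 of the libraries labelled Kit-lo, and *Slc38a10* with upper quartile scaling and without replicate 1 of the libraries labelled Kit-lo. The cystine carrier *Slc7a11* and the creatine carrier *Slc6a8* were too low to be tested, at no more than 0.834 and 0.73 CPM in any library.

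Carboxylate carriers had the largest ratio of summed levels, 238 against 131 CPM per kilobase or 1.82-fold. By edgeR 3 of 6 tested genes were higher and 0 lower, beside 12.1% and 9.83% of all genes tested. At an unadjusted p under 0.05 also 0 were lower, and DESeq2 called 2 higher and 0 lower. *Slc16a1*, the main carrier of lactate and pyruvate of many cells, was at 366, 434 and 409 CPM in control and at 401, 680 and 831 in the libraries labelled Kit-lo. Replicate 1 of the libraries labelled Kit-lo lay within the control range, the only such overlap among the DEGs (log2 fold change 0.66 ± 0.21, SE, adjusted p = 0.0334). Its call was lost with DESeq2, without any of the control libraries, and without replicate 2 or 3 of the libraries labelled Kit-lo.

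*Slc16a3*, the lactate exporter of glycolytic cells, was lower in level but rose more. It was at 6.46, 7.21 and 8.3 CPM in control and at 46.4, 24.7 and 26.4 in the libraries labelled Kit-lo (log2 fold change 2.15 ± 0.25, SE, adjusted p = 0.000162). *Slc16a6*, of the same family, was at 149 ± 11.8 CPM in control and 350 ± 20.8 in the libraries labelled Kit-lo (SD, n = 3 and 3, log2 fold change 1.23, adjusted p = 7.62e-06), with 21.5% of its exonic bases opposite *Amz2*. *Bsg*, which encodes the partner protein that brings *Slc16a1* and *Slc16a3* products to the cell surface, rose from 741 ± 19.1 to 1128 ± 141 CPM (SD, n = 3 and 3, log2 fold change 0.61, adjusted p = 0.000749).

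**Figure D2:**
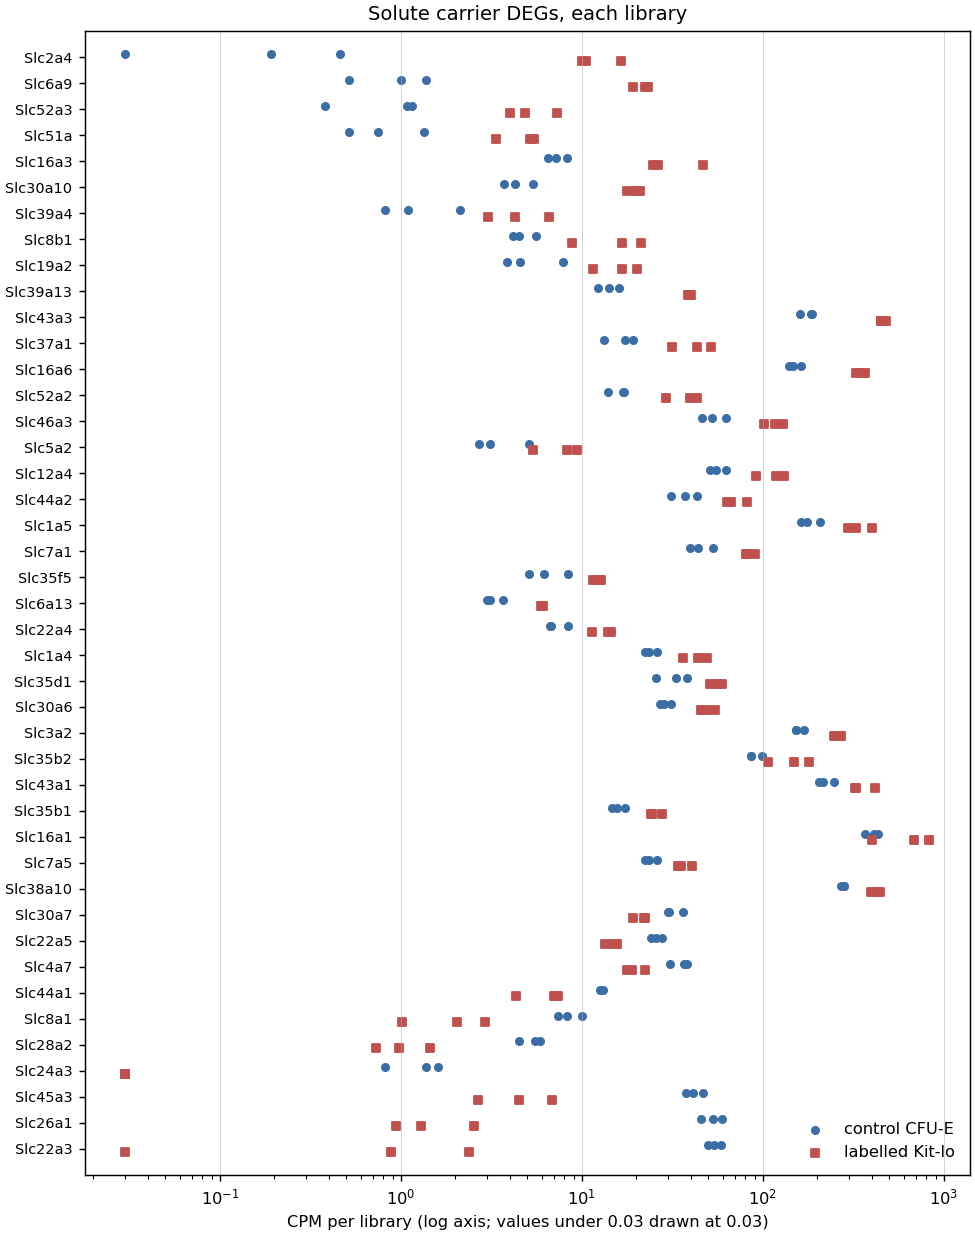
CPM of 43 of the 44 solute carrier DEGs in each RNA-seq library on a log axis, genes ordered by fold change, circles for the 3 control and squares for the 3 libraries labelled Kit-lo, values under 0.03 drawn at 0.03. Among the genes drawn, only for *Slc16a1* does a square lie among the circles.

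Sugar carriers differed in direction from gene to gene. *Slc2a4*, an insulin-responsive glucose transporter (chr11:69942539-69948188, minus strand), showed the largest rise of all carriers. It was at 0.192, 0 and 0.458 CPM in control and at 16.5, 9.95 and 10.5 in the libraries labelled Kit-lo (log2 fold change 5.80 ± 0.59, SE, adjusted p = 6.33e-05). Control libraries thus held almost no reads of the gene, and per kilobase it ranked 81 of the 212 carriers in the libraries labelled Kit-lo, at 3.86.

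*Slc2a1*, another glucose transporter, was low in both groups. It was at 0.862, 1.54 and 1.15 CPM in control and at 0.416, 0.68 and 0.574 in the libraries labelled Kit-lo, and did not pass the test (log2 fold change -1.07, adjusted p = 0.146). *Slc37a1*, of the glucose 6-phosphate antiporter family of the endoplasmic reticulum, rose from 16.6 ± 3.1 to 42.1 ± 10.2 CPM (SD, n = 3 and 3, log2 fold change 1.35, adjusted p = 0.0008). The sodium-coupled glucose carrier *Slc5a2* also rose, from 3.63 to 7.67 CPM (adjusted p = 0.0319), with 20.6% of its exonic bases opposite *BC017158*. It lost its call without control replicate 2 or 3 and without replicate 1 or 2 of the libraries labelled Kit-lo.

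*Slc45a3*, of a family of proton-coupled sugar carriers, fell. It was at 37.7, 41.1 and 46.6 CPM in control and at 6.8, 2.67 and 4.49 in the libraries labelled Kit-lo (log2 fold change -3.17 ± 0.28, SE, adjusted p = 2.93e-05). The sugar class had 3 genes higher and 1 lower of 13 tested by edgeR, beside 12.1% and 9.83% of all genes tested. DESeq2 called 3 higher and 2 lower, and at an unadjusted p under 0.05 by edgeR there were also 3 and 2. Only 4 of the 13 had a positive log2 fold change. The summed level of the class was 91.2 CPM per kilobase in control and 81.6 in the libraries labelled Kit-lo.

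**Figure D3:**
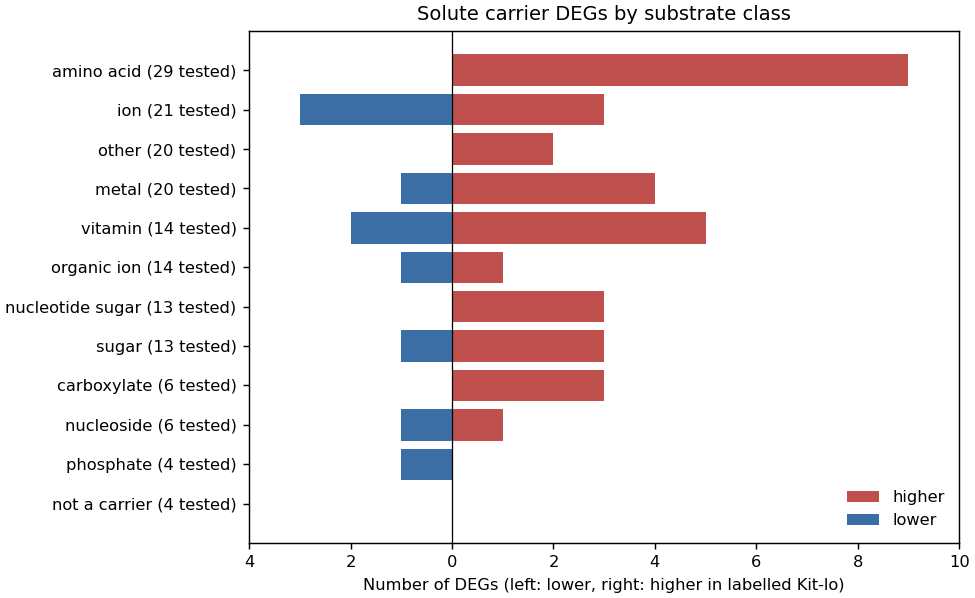
Number of DEGs in each substrate class, bars to the right for genes higher and bars to the left for genes lower in the libraries labelled Kit-lo, with the number tested beside each name. Amino acid carriers have 9 rises and no fall, ion carriers 3 of each. Over all genes tested, 12.1% were higher and 9.83% lower.

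Carriers of vitamins and related cofactors had 5 genes higher and 2 lower of 14 tested, beside 12.1% and 9.83% of all genes tested. *Slc19a2*, a thiamine carrier, was at 3.88, 7.89 and 4.52 CPM in control and at 11.5, 16.6 and 20.2 in the libraries labelled Kit-lo (log2 fold change 1.57 ± 0.31, SE, adjusted p = 0.0032). Both genes listed of the riboflavin carrier family Slc52 rose. *Slc52a2* went from 15.96 ± 1.7 to 37.3 ± 7.2 CPM (SD, n = 3 and 3, log2 fold change 1.22, adjusted p = 0.000494), and *Slc52a3* from 0.872 ± 0.42 to 5.39 ± 1.7 CPM (SD, n = 3 and 3, log2 fold change 2.63, adjusted p = 0.00192).

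Choline and carnitine carriers each had a rising relative. *Slc44a1*, the choline carrier, fell from 12.8 ± 0.28 to 6.22 ± 1.7 CPM (SD, n = 3 and 3, log2 fold change -1.04, adjusted p = 0.00703), while *Slc44a2* of the same family rose (log2 fold change 0.93, adjusted p = 0.00104). *Slc22a5*, the carnitine carrier, fell from 25.8 ± 1.7 to 14.6 ± 1.1 CPM (SD, n = 3 and 3, log2 fold change -0.82, adjusted p = 0.00178). The ergothioneine carrier *Slc22a4*, close by on chromosome 11, rose from 7.28 ± 0.96 to 13.3 ± 1.6 CPM (SD, n = 3 and 3, log2 fold change 0.86, adjusted p = 0.00832).

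The most abundant genes of the class were not DEGs. *Slc19a1*, the reduced folate carrier, was at 306, 296 and 328 CPM in control and at 423, 322 and 349 in the libraries labelled Kit-lo, with a rank of 3 among all carriers per kilobase in control (log2 fold change 0.23, adjusted p = 0.111). The other folate carrier, *Slc46a1*, was at 2.61 ± 1.2 and 2.58 ± 1.5 CPM (SD, n = 3 and 3, adjusted p = 0.979). *Slc48a1*, which moves heme out of endosomes and lysosomes, was at 157 ± 11.1 and 210 ± 25.3 CPM (SD, n = 3 and 3, log2 fold change 0.43, adjusted p = 0.0101), a difference smaller than 1.5-fold.

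Metal carriers rose in 4 and fell in 1 of 20 tested genes, beside 12.1% and 9.83% of all genes tested. *Slc30a10*, which exports manganese, was at 5.36, 3.72 and 4.29 CPM in control and at 17.7, 19.9 and 20.9 in the libraries labelled Kit-lo (log2 fold change 2.12 ± 0.21, SE, adjusted p = 4.66e-05). *Slc39a13*, of the zinc importer family, was at 14.2 ± 1.9 against 39.6 ± 0.70 CPM (SD, n = 3 and 3, log2 fold change 1.48, adjusted p = 4.62e-05). *Slc39a4*, another zinc importer, rose from 1.34 to 4.63 CPM (adjusted p = 0.0141), and its call was lost without control replicate 1 or 3.

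The only pair of relatives with one rising and one falling gene, both with average log2 CPM over 4, was a pair of zinc carriers of the secretory pathway. *Slc30a6* rose from 28.8 ± 2.0 to 49.5 ± 4.7 CPM (SD, n = 3 and 3, log2 fold change 0.78, adjusted p = 0.000998). *Slc30a7* fell from 31.98 ± 3.45 to 21.2 ± 1.7 CPM (SD, n = 3 and 3, log2 fold change -0.59, adjusted p = 0.00922), just past the fold threshold, with 10.5% of its exonic bases opposite *Gm6649*. It lost its call with scaling by library size only, with a filter of 1 CPM, without control replicate 1 and without replicate 3 of the libraries labelled Kit-lo. *Slc39a7*, which releases zinc from the endoplasmic reticulum and ranks 2 in level per kilobase in control (128 against 170), differed by less than 1.5-fold (log2 fold change 0.41, adjusted p = 0.00594), and 80.7% of its exonic bases are shared with the overlapping model *Gm20427*. *Slc39a10* (65.6 against 49.3 CPM, adjusted p = 0.161) and the zinc exporter *Slc30a1* (1.12 against 1.68 CPM, adjusted p = 0.386) did not pass the test.

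Ion carriers had 3 higher and 3 lower of 21 tested by edgeR, and 3 and 4 by DESeq2. Over all genes tested, edgeR called 12.1% higher and 9.83% lower. Only 8 of the 21 had a positive log2 fold change, and at an unadjusted p under 0.05 there were 4 higher and 7 lower. The potassium-chloride cotransporter *Slc12a4* rose from 56.1 to 114 CPM (log2 fold change 1.02, adjusted p = 0.000424) and was the leading gene of the class per kilobase in both groups. *Slc12a2*, which carries sodium, potassium and chloride inward, had 16.6 ± 2.7 against 8.91 ± 4.9 CPM (SD, n = 3 and 3, log2 fold change -0.90) and missed the threshold (adjusted p = 0.063), but was called lower by DESeq2 and without replicate 1 of the libraries labelled Kit-lo.

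Exchangers of sodium for calcium moved in both directions. *Slc8b1*, which serves mitochondria, was at 4.17, 5.6 and 4.47 CPM in control and at 16.6, 21.2 and 8.81 in the libraries labelled Kit-lo (log2 fold change 1.71 ± 0.32, SE, adjusted p = 0.0022). *Slc8a1*, of the plasma membrane, was at 7.37, 8.24 and 9.96 CPM in control and at 2.91, 1.02 and 2.03 in the libraries labelled Kit-lo (log2 fold change -2.10 ± 0.38, SE, adjusted p = 0.00189). *Slc24a3*, which exchanges sodium for calcium and potassium, was at 0.814, 1.6 and 1.37 CPM in control and had no count in any library labelled Kit-lo, so that it was at least 8.28-fold lower against a floor of 3 counts per library. The bicarbonate carrier *Slc4a7* fell from 35.1 ± 3.8 to 19.7 ± 2.4 CPM (SD, n = 3 and 3, log2 fold change -0.84, adjusted p = 0.00183).

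The 2 falls with the largest fitted fold among genes with counts in both groups belonged to the organic ion and the phosphate and sulfate classes. *Slc22a3*, a carrier of organic cations and monoamines (chr17:12418960-12507704, minus strand), was at 53.5, 58.8 and 49.6 CPM in control and at 0, 2.38 and 0.887 in the libraries labelled Kit-lo (log2 fold change -5.60 ± 0.59, SE, adjusted p = 7.93e-05). *Slc26a1*, a sulfate and oxalate exchanger (chr5:108669878-108675569, minus strand), was at 45.4, 59.5 and 53.2 CPM in control and at 1.3, 2.52 and 0.939 in the libraries labelled Kit-lo (log2 fold change -5.04 ± 0.30, SE, adjusted p = 2.74e-06). *Slc22a3* held 34.5% of the summed level of the organic ion class per kilobase in control, and that class fell in sum from 37.9 to 30.9. On that scale *Slc22a3* itself went from 13.1 to 0.264, while 9 of the 14 tested genes of the class had a positive log2 fold change.

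The other genes of both classes moved less. The organic ion class had 1 higher and 1 lower of 14 tested, and the phosphate and sulfate class 0 and 1 of 4. Over all genes tested, 12.1% were higher and 9.83% lower. *Slc51a*, a subunit of a bile acid and steroid carrier, was the only organic ion carrier called higher (0.867 ± 0.43 against 4.66 ± 1.1 CPM, SD, n = 3 and 3, adjusted p = 0.00239), with 17.7% of its exonic bases opposite *Pcyt1a*. The vesicular monoamine carrier *Slc18a2* was at 36.95 ± 5.1 and 44.95 ± 4.6 CPM (SD, n = 3 and 3, adjusted p = 0.153). The phosphate importer *Slc20a1* held 55.0% of its class per kilobase in control and did not pass the test (95.2 ± 13.3 against 121 ± 29.8 CPM, SD, n = 3 and 3, adjusted p = 0.136).

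Carriers of nucleotide sugars and related substrates into the Golgi and endoplasmic reticulum had 3 higher and 0 lower of 13 tested by edgeR and by DESeq2. Over all genes tested, edgeR called 12.1% higher and 9.83% lower. At an unadjusted p under 0.05, 1 of the 13 was lower. *Slc35d1* had the largest rise, from 32.4 ± 6.4 to 55.7 ± 4.1 CPM (SD, n = 3 and 3, log2 fold change 0.78, adjusted p = 0.00326). Among the 20 tested carriers with another or an unsettled substrate, 1 was lower at an unadjusted p under 0.05. By either tool 2 of them were called higher and 0 lower, beside 12.1% and 9.83% of all genes by edgeR. Of these, *Slc46a3* of the lysosome went from 45.9, 52.1 and 62.9 CPM in control to 102, 116 and 128 in the libraries labelled Kit-lo (log2 fold change 1.11, adjusted p = 0.000203). *Slc35a4* (265 ± 24.8 against 344 ± 29.99 CPM, SD, n = 3 and 3, adjusted p = 0.012) and the urea carrier *Slc14a1* of the red cell (244 ± 8.3 against 287 ± 23.2 CPM, SD, n = 3 and 3, adjusted p = 0.0469) differed by less than 1.5-fold. The 4 genes that are not carriers had 0 DEGs and 0 with an unadjusted p under 0.05 by edgeR or DESeq2.

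**Figure D4:**
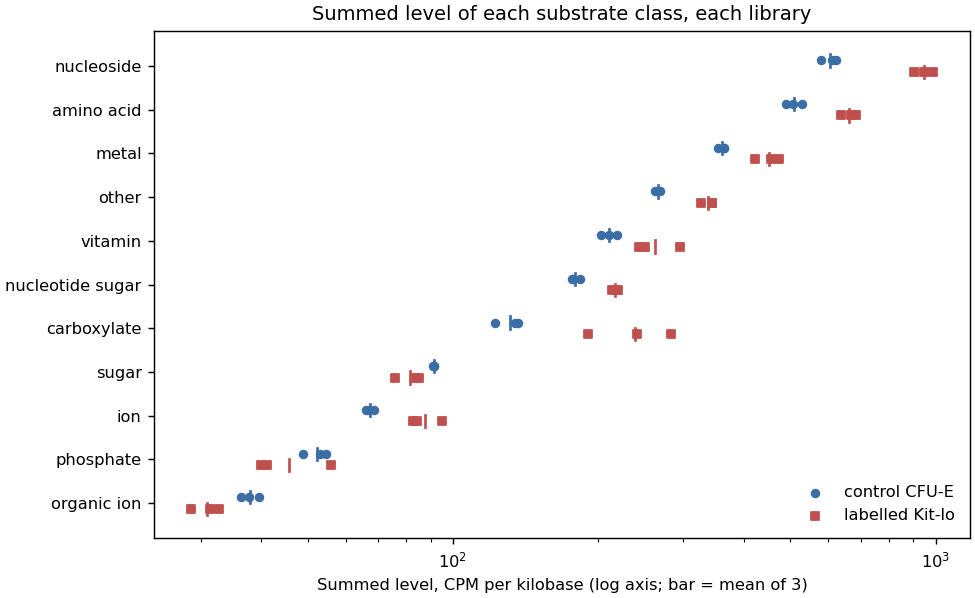
Summed level of each substrate class in each RNA-seq library, in CPM per kilobase on a log axis, circles for control, squares for libraries labelled Kit-lo, and a bar at each mean of 3. The nucleoside class is highest in both groups, the groups are apart for every class but phosphate, and the sugar and organic ion classes are lower in the libraries labelled Kit-lo.

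To show the sequence before the start of genes with large changes, promoters are printed for the risers *Slc30a10* and *Slc19a2* and the fallers *Slc22a3* and *Slc45a3*, the strongest named on each side that had a RefSeq entry and whose 250 bases before the RefSeq start (build GRCm38.p6) overlap no annotated exon. Capitals mark the GATA site (AGATAA or AGATAG, and the same with a T in the first place), bound by the erythroid GATA factors, and the CACC box (CCNCNCCC), bound by factors of the Klf and Sp families. Both were searched on both strands, with overlapping matches of the CACC box counted each.
Slc30a10, chr1:185454598-185454847, plus strand: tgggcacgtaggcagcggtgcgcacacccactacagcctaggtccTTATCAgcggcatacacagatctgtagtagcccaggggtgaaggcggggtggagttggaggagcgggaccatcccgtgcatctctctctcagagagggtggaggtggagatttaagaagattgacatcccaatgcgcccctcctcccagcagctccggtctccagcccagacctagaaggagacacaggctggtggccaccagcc
Slc19a2, chr1:164248796-164249045, plus strand: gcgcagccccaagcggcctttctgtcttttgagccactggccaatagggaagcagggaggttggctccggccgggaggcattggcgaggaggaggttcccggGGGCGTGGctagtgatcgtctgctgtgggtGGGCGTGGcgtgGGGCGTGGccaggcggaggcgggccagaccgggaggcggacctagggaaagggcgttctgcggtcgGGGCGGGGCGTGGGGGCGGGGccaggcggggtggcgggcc
Slc22a3, chr17:12507705-12507954, minus strand: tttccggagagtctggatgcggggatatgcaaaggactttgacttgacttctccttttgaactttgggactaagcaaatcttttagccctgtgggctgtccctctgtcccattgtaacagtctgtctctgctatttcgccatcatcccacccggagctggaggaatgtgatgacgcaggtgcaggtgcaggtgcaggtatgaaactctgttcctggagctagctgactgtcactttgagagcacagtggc
Slc45a3, chr1:131962665-131962914, plus strand: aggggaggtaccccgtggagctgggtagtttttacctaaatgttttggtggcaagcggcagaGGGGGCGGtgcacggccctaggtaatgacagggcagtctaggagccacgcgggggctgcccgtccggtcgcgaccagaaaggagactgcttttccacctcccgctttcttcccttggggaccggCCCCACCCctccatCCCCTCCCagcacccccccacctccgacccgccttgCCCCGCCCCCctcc
The *Slc30a10* window holds 1 GATA match, the *Slc19a2* window 7 and the *Slc45a3* window 5 CACC matches, and the *Slc22a3* window neither. Of 27025 RefSeq promoters, 27.1% held a GATA match and 45.6% a CACC match in the same 250 bases, and a match is a description of the letters only. Entries were at hand for 23 of the 34 carriers that rose, fewer than 80%, so the share of risers with a motif is not given.

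The m6A libraries gave the level of each transcript in IP over input in control CFU-E cells. Of the 182 carriers in that table, 156 were tested, and 12 were higher and 8 lower in IP at an adjusted p under 0.05. These were 7.69% and 5.13% of the carriers tested, against 7.9% higher and 7.86% lower over all 11447 genes tested (12.8% of carriers and 15.8% of all genes either way). Both IP libraries lay above both inputs for 29.5% of the carriers and below them for 23.7%, 53.2% in all, against 32.2%, 28.7% and 60.9% of all genes. The median log2 fold change of IP over input was 0.13 for the carriers and 0.06 for all genes, and it was -0.02 without input replicate 2 and -0.11 without IP replicate 1. The counts rested on single libraries. There were 3 higher and 0 lower without input replicate 1 (edgeR, with 8 lower at an unadjusted p under 0.05), 8 and 6 without input replicate 2, 4 and 10 without IP replicate 1, and 18 and 7 without IP replicate 2, each leaving 1 lone library whose spread was taken from the other group. The shares over all genes moved as well, to 1.39% higher and 3.61% lower without input replicate 1, 4.69% and 5.52% without input replicate 2, 3.71% and 6.34% without IP replicate 1, and 11.3% and 8.04% without IP replicate 2. Scaling by library size only left 4 lower, and with a replicate of each group dropped or any scaling *Slc20a1*, *Slc24a5* and *Slc5a3* kept their calls.

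*Slc20a1*, the phosphate importer, was at 7.1 and 6.35 CPM in input and at 32.6 and 17.5 in IP (log2 fold change 1.90 ± 0.33, SE, adjusted p = 0.00402). *Slc5a3*, which carries myo-inositol, was at 1.9 and 1.69 CPM in input and at 12.6 and 8.54 in IP (log2 fold change 2.56 ± 0.35, SE, adjusted p = 0.000833). *Slc24a5*, a cation exchanger of organelles, was at 0.529 and 3.65 CPM in input and 17.1 and 18.9 in IP (log2 fold change 3.15 ± 0.60, SE, adjusted p = 0.00662). The IP libraries of all 3 genes lay above both inputs, but 39.5% of the exonic bases of *Slc24a5* lie opposite *Myef2*.

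Among the other genes higher in IP, *Slc7a2*, *Slc6a20b* and *Slc18b1* had log2 fold changes of 2.23, 2.10 and 1.93, at no more than 4.7 CPM in any IP library. Each lost its call without at least 3 of the 4 libraries in turn. The monoamine carrier *Slc18a2* was at 1.76 and 1.91 CPM in input and 8.97 and 3.67 in IP (log2 fold change 1.80, adjusted p = 0.0238), a call lost without input replicate 1 or IP replicate 1. In the RNA-seq none of these genes was a DEG, and *Slc6a20b* and *Slc18b1* were at 1.64 against 1.81 and 3.67 against 3.82 CPM.

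On the lower side, *Slc35a3*, which carries a nucleotide sugar into the Golgi, was at 58.4 and 26.1 CPM in input and at 12.5 and 5.43 in IP (log2 fold change -2.22 ± 0.45, SE, adjusted p = 0.00844). *Slc39a7* was at 216 and 166 against 88.9 and 73.3 CPM (log2 fold change -1.24 ± 0.23, SE, adjusted p = 0.006), and *Slc7a6os* at 41.1 and 41.3 against 17.7 and 17.8 (log2 fold change -1.21, adjusted p = 0.00736). *Slc22a18*, of the organic ion class, was at 4.54 and 3.99 against 1.7 and 0.854 CPM (log2 fold change -1.69, adjusted p = 0.0253). All 4 lost their call without input replicate 1. The abundant *Slc29a1* did not differ detectably (452 and 383 CPM in input, 458 and 388 in IP, log2 fold change 0.02 ± 0.22, SE, adjusted p = 0.966).

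**Figure D5:**
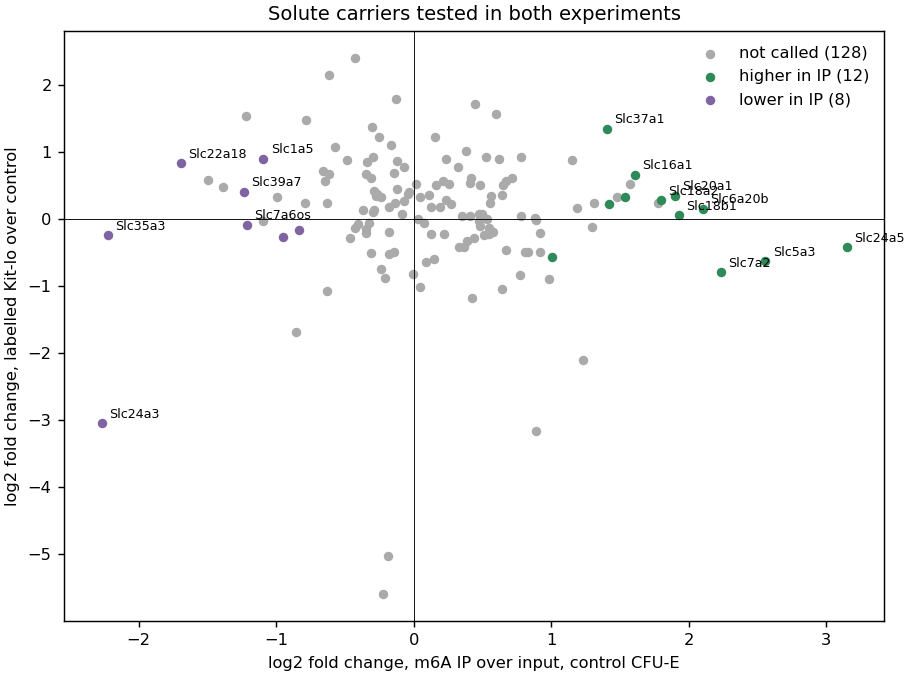
Each point is a carrier tested in both experiments, with its log2 fold change of IP over input in control CFU-E cells on the x axis and its log2 fold change of libraries labelled Kit-lo over control in the RNA-seq on the y axis. Of the 12 carriers higher in IP, *Slc37a1* and *Slc16a1* are DEGs by edgeR, and *Slc24a3*, drawn at its bound, is lower on both axes.

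By edgeR, of the 12 higher in IP, *Slc16a1* and *Slc37a1* were DEGs, both rising, and of the 8 lower in IP, *Slc1a5* rose and *Slc24a3* fell. *Slc16a1* was at 11.1 and 12.98 CPM in input and at 48.7 and 24.3 in IP (log2 fold change 1.61, adjusted p = 0.0106), and *Slc37a1* at 2.65 and 1.41 against 5.75 and 5.08 (1.41, adjusted p = 0.0365). *Slc1a5* was at 216 and 106 against 88.7 and 62.5 CPM (-1.09, adjusted p = 0.0464), and *Slc24a3* at 2.16 and 2.64 against 0.671 and 0.251 (-2.27, adjusted p = 0.0203). All 4 lost the IP call without input replicate 1, and others of the 4 libraries decided it too: IP replicate 1 for *Slc16a1*, IP replicate 1 or input replicate 2 for *Slc37a1*, IP replicate 2 for *Slc1a5* and input replicate 2 for *Slc24a3*. *Slc5a3*, also higher in IP, was called lower in the RNA-seq by DESeq2 and without replicate 2 of the libraries labelled Kit-lo. Its RNA-seq log2 fold change was -1.04 to -0.40 over the alternatives. DESeq2 did not call *Slc16a1* in the RNA-seq. Over all genes tested in both experiments, 10.3% of the 864 higher in IP rose and 10.2% fell, and 17.3% of the 833 lower in IP rose and 9.96% fell. Of the 128 carriers tested in both that did not pass the IP test, 27 rose (21.1%) and 8 fell (6.25%). Over all 9076 genes tested in both that did not pass it, 12.1% rose and 10.5% fell. Of the largest changes in the RNA-seq, *Slc22a3* and *Slc26a1* did not pass the IP test (log2 fold change -0.22 and -0.18), *Slc2a4* and *Slc30a10* had no entry in the m6A table, and *Slc6a9* was too low to be tested there, at no more than 0.562 CPM in any library.

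The GGACT letters, the core of the sequence at which Mettl3 most often acts, were counted in the longest annotated transcript of each gene. Carriers higher in IP had a median of 3 GGACT in a median length of 4313 bases, and carriers lower in IP 5 in 2883 bases. Over all genes the medians were 4 in 4342.5 bases for those higher in IP and 3 in 2679.5 bases for those lower. Per kilobase, the median was 0.751 GGACT for the 12 carriers higher in IP, 1.08 for the 136 not called and 2.10 for the 8 lower. Over all genes these medians were 0.913, 1.02 and 1.06. The longer transcripts, with fewer GGACT per kilobase, were thus on the side higher in IP among carriers and among all genes.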

How the data were processed

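The authors trimmed reads with fastp 0.23.4 and quantified transcripts with kallisto 0.48.0 on mm10 by the study's methods (the submitters' processing notes also list GRCm39), summed transcripts per gene by tximport, and deposited estimated counts per gene, without normalization. All values were whole numbers, so rounding changed nothing. Smart-seq2 was used for RNA-seq and SLIM-seq for the m6A libraries, whose use of molecular identifiers in counting is not stated. Columns that belonged to no sample numbered 0. Groups were taken from the labels. Each experiment was fitted over all its genes with edgeR 4.0.16 in R 4.3.3 (TMM, filterByExpr, glmQLFit, glmQLFTest, Benjamini-Hochberg adjustment), without a block, and the SE is the absolute log2 fold change over the square root of F. The code was tested on simulated data. CPM values use TMM-scaled totals. The coefficient of variation between replicates was 19.1% (RNA-seq) and 21.9% (m6A), and PCR copies are not independent molecules.

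Alternatives were DESeq2 1.42.0, other scalings, filters and fold thresholds, a replicate block and leaving out each library. Coordinates are those of GRCm38 (GENCODE vM21). The members, classes and lists were chosen with earlier results of these data known. Genes named were the DEGs with the largest changes with average log2 CPM over 2, the leading DEGs of each class, the 10 most abundant, the 6 highest and 6 lowest in IP, DEGs past the IP test, DEGs at the floor of 3 counts, and 24 fixed carriers. Other DEGs were named after their values were seen, to account for the small counts in their class, and a few genes counted are not reported here by name. Figures were drawn in Python 3.11.15 with matplotlib 3.10.9.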

Additional observations from a re-analysis of the deposited data

How the results depend on the processing

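In the RNA-seq, scaling by DESeq2's size factors, by library size only or by the upper quartile, DESeq2, other filters and the replicate block gave 32 to 36 carriers higher and 9 to 13 lower, and leaving out each library gave 31 to 34 and 10 to 15. The former settings called 16.5% to 24.1% of carriers higher and 5.49% to 7.93% lower, against 9.2% to 13.8% and 8.22% to 10.9% of all genes. With a library left out these were 17.7% to 20% and 5.71% to 8.82%, against 9.59% to 12.3% and 7.82% to 10%. Without a fold threshold there were 44 and 13 (26.8% and 7.93%, against 17.6% and 16.9% of all genes). With the test against a fold of 1.5 there were 18 and 6 (11% and 3.66%, against 5.55% and 4.02%). The median log2 fold change of 0.18 became 0.22 by library size only and 0.25 with a filter of 1 CPM, and was 0.13 to 0.23 with a library left out. The ion class was 1.30 times higher in sum per kilobase and 1.18 times without division by length. In the m6A libraries, the counts of 12 and 8 became 20 and 19 with the replicate block (12.8% and 12.2%, against 15.6% and 15.3% of all genes), 12 and 4 by library size only (7.69% and 2.56%, against 8.16% and 5.31%), 16 and 7 by the upper quartile (10.3% and 4.49%, against 12.7% and 6.59%), and with a library left out 3 to 18 and 0 to 10, while the median was -0.11 to 0.26. Scaling by library size only and by the upper quartile moved the median of all genes in IP over input by 0.16 and 0.13. Same-numbered libraries did not deviate together in the RNA-seq (r = 0.035, -0.017 and -0.072 over genes) and had r = 0.205 in the 2 m6A pairs, and no source says that a number marks a shared source, so the pairing stays unused. In the RNA-seq, the block took away the call of *Slc6a13*. Reversed values were found for genes far from the threshold: *Slc46a1* at 0.027 by library size only and -0.41 to 0.39 with a library left out (from -0.02), *Slc6a20b* at -0.33 with the replicate block and -1.36 to 0.82 with a library left out (from 0.16), and *Slc18b1* down to -0.17 (from 0.05). The cause was not tested.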

Other observations

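Transport proteins outside the Slc symbols were counted from lists of the same kind. Of 44 listed members of the superfamily with other symbols, 37 were tested, 5 were higher (*Rhag*, *Rhd*, *Unc93b1*, *Mfsd5* and *Mfsd11*) and 3 lower (*Spns3*, *Mfsd2b* and *Mfsd6*) in the libraries labelled Kit-lo. These were 13.5% and 8.11%, near the 12.1% and 9.83% of all genes tested. *Rhag*, the Rh-associated glycoprotein of the red cell membrane, rose from 229 ± 13.3 to 376 ± 25.6 CPM (SD, n = 3 and 3, log2 fold change 0.71, adjusted p = 0.000141). *Rhd* rose from 1019 to 1661 CPM (log2 fold change 0.71, adjusted p = 0.000777). *Mfsd2b*, which exports sphingosine 1-phosphate from red cells, fell from 595 ± 35.95 to 355 ± 12.7 CPM (SD, n = 3 and 3, log2 fold change -0.74, adjusted p = 6.21e-05).

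Pumps driven by ATP had 9 higher (18.4%) and 5 lower (10.2%) of 49 tested (61 listed), against 12.1% and 9.83% of all genes, and a median log2 fold change of -0.09. Among the higher ones, *Abcb10* and *Abcb6*, which are tied to heme synthesis, went from 166 ± 10.6 to 461 ± 46.5 CPM (SD, n = 3 and 3, adjusted p = 4.29e-06) and from 160 ± 4.6 to 451 ± 37.2 CPM (SD, n = 3 and 3, adjusted p = 2.25e-06). The sodium pump subunit *Atp1b2* went from 528 to 1077 CPM (log2 fold change 1.03, adjusted p = 0.000122). Of the phospholipid flippases, *Atp11b* and *Atp11a* were lower (log2 fold change -0.99 and -2.28) and *Atp10d* was higher (0.71, adjusted p = 0.0381). Of 3 tested partner proteins, *Bsg* was the only one called. All genes in these paragraphs were named after their values were seen.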
